A study of Mus musculus with 8 samples.

Results

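Cytochrome P450 genes of mouse liver were taken from a table of ribosome footprints as the rows whose symbol is Cyp followed by a digit. There were 45 such rows among 7500 genes. By family number, 31 belonged to the xenobiotic families 1 to 3, 8 to the fatty acid family 4, 4 to the bile acid and sterol families (7, 27, 46 and 51, with no row of families 8 or 39), 1 to the retinoid family 26, and 1, Cyp17a1, to none of these. The footprints came from livers of male wild-type mice of the FVB/N strain, which received 1 of 2 diets for 6 weeks from weaning at 3 weeks of age. Both diets were selenium-deficient feed, named 0 Se without a supplement and 0.1 Se with 0.1 ppm selenium as sodium selenite, with 2 mice and 4 libraries (2 per mouse) for each diet.

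The table gave 1 abundance per gene, the authors' mean over all libraries of both diets. Every level below is therefore a level of the pooled livers, with no value for a single mouse, no SD and no n, and neighbours in the order of levels cannot be told apart by a spread. The 2 diets were not compared, because the remaining columns hold the authors' own comparison and were not used here. The depth of each library is unknown. Of 98 P450 genes annotated as protein-coding in GENCODE M1, 53 had no row. The study tested genes above a minimum of 1 CPM in 3 samples, so a row can be missing for a low level. A missing row alone does not show a low level, since abundant liver genes such as Cps1 had none either. In whole liver, fewer cells of a type and less RNA per cell cannot be told apart.

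P450 enzymes are membrane-bound proteins that hold a heme through a cysteine and use it to insert 1 atom of oxygen into a substrate. In the endoplasmic reticulum they receive electrons from P450 reductase (Por), and in mitochondria from ferredoxin (Fdx1). Hepatocytes use families 1 to 3 mainly on drugs and other foreign compounds, family 4 mainly on fatty acids and eicosanoids, families 7, 8, 27 and 39 to turn cholesterol into bile acids, Cyp51 in cholesterol synthesis and family 26 to break down retinoic acid.

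A stretch that P450 enzymes of all these families have in common is the heme-binding site, written in amino acids as F, 2 of any kind, G, 3 of any kind, C, 1 of any kind and G, where C is the cysteine that binds the heme iron. A search of the translated coding sequences found it in 44 of the 45 genes. The exception was Cyp3a59, whose last position of the motif was not G, and with that position left free all 45 matched. The 10 codons are shown for the gene of highest level, for near relatives that differ in level, for the exception and for 1 gene each of the sterol and retinoid families, on the coding strand in the mm9 build with the cysteine codon in capitals.

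Cyp2e1: ttttctgcaggaaagcgcgtgTGTgttgga
Cyp2c29: ttttcaacaggaaaacggattTGTgctgga
Cyp2c38: ttctcagcaggaaaacgggttTGTgctgga
Cyp1a2: ttcggcttgggaaagcgccggTGCattggg
Cyp1a1: tttggtttgggcaagcgaaagTGCatcgga
Cyp3a25: tttggaaatggacccaggaacTGCataggc
Cyp3a59: tttggaaatggacccaggaacTGCctagac
Cyp27a1: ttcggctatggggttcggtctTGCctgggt
Cyp26a1: tttggaggaggccttcggagcTGTgtaggc

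The site lies in 1 coding exon in Cyp1a2 (chr9:57525203-57525232, minus strand, exon 6 of 6) and Cyp26a1 (chr19:37775650-37775679, plus strand, exon 7 of 7). In Cyp2e1 an intron divides it, with 10 bases in exon 8 (chr7:147959661-147959670, plus strand) and 20 in exon 9 (chr7:147960457-147960476). The same division, 20 bases in the later exon, was found in all 25 genes of family 2 and in Cyp51, while 7 of 8 genes of family 4 had 13 bases there and Cyp4v3 had 2. The motif was undivided in the other 11 genes. Over the 45 genes there were 42 different stretches of 30 bases. Cyp2c67 and Cyp2c68 had the same one, and so did the 3 genes Cyp2d9, Cyp2d22 and Cyp2d26. The cysteine lay between 84.0% and 89.9% of the way along each protein.

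Levels of different genes were compared per length, as footprint density, which is CPM (counts scaled to a common library size) per kb of the coding sequence in which the authors counted. The 45 genes together held 32858 CPM, or 3.29% of the total that CPM is scaled to. That was 3.83% of the summed CPM of the table, while they made up 0.6% of its genes. Of the counts of these 45 genes, Cyp2e1 alone held 39.7%, the 4 most abundant genes 65.8% and the 10 most abundant 84.2%. Densities of these genes with a row ran from 0.830 CPM per kb for Cyp4f16 to 9165 for Cyp2e1, an 11040-fold range. Cyp4f16 had a log2 CPM of 0.330, near the lowest of the table (0.17), so the lower end lies near the minimum level for a row. With up to 2 mismatches, 88.4% of its windows were shared, and its count divided by the remaining windows gave 7.31. The median was 59.5 CPM per kb, against 11.3 over all genes of the table.

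**Figure D1:**
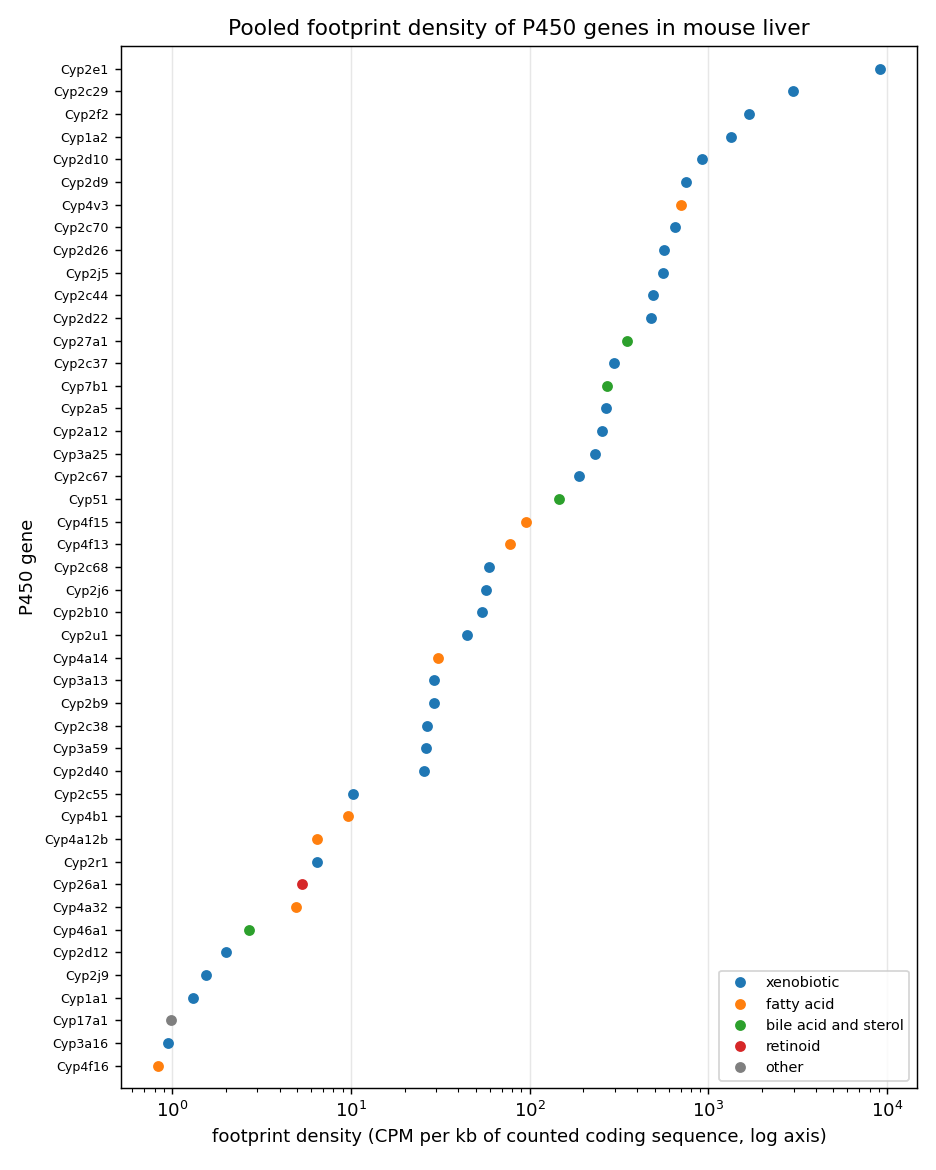
Footprint density of each of the 45 P450 genes (CPM per kb of counted coding sequence, log axis), pooled over all libraries of both diets, ordered by level and coloured by class. Cyp2e1 stands at 9165, Cyp2c29 follows at 2979, and 9 genes at the bottom have a log2 CPM under 3.

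Of the 45 genes, 7 had a log2 CPM of at least 10, 29 lay from 3 to 10 and 9 were under 3. In the table as a whole 33.4% of genes were under 3, a larger share than the 9 of 45. The top 10% of the table by density held 20 P450 genes, which is 44.4% of them. This was 16 of 31 in the xenobiotic families, 1 of 8 in family 4, 3 of 4 in the bile acid and sterol families and 0 of the other 2 genes.

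Enzymes of foreign compounds came first. Cyp2e1 (chromosome 7, 147949638 to 147960874, mm9), which oxidises ethanol and other small molecules, was 11th of all 7500 genes by density and 3.08-fold above the next P450 gene. That gene was Cyp2c29 (chromosome 19, 39315441 to 39405189), with 2979 CPM per kb. With up to 2 mismatches, 61.05% of 30-base windows of Cyp2c29 occur in another gene. No counts per window were available. With the whole count of each gene divided by its windows found in no other gene, Cyp2e1 was 1.203-fold above Cyp2c29. Cyp2f2 (chromosome 7, 27904928 to 27918679), known for oxidising naphthalene, stood at 1689 CPM per kb, and Cyp1a2 (chromosome 9, 57524744 to 57531462), which oxidises caffeine and aromatic amines, at 1341. These 4 genes were the only P450 genes above 1000 CPM per kb of counted sequence.

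Below them, Cyp2d10 had a density of 919.8 CPM per kb and Cyp2d9, a male-predominant steroid hydroxylase of mouse liver, 752.4. Cyp2c70, which in mice hydroxylates bile acids to make muricholic acids, stood at 652.8 CPM per kb although its family number places it with the xenobiotic enzymes. Cyp2d26 followed at 566.2 and Cyp2j5, an epoxygenase of arachidonic acid, at 557.1. Cyp2c44 and Cyp2d22 closed the 12 highest with 491.6 and 479.0 CPM per kb. Apart from Cyp4v3, a fatty acid hydroxylase at 706.9, these genes belonged to families 1 and 2, and the steps from Cyp2d9 down to Cyp2d22 were each under 1.2-fold.

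**Figure D2:**
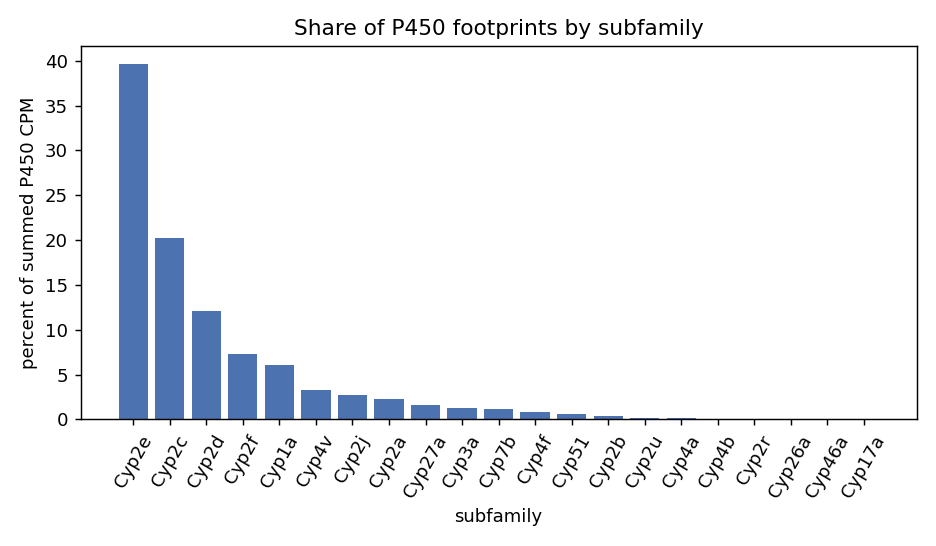
Share of the summed CPM of the 45 P450 genes with a row (percent, bars from 0) held by each subfamily, pooled over all libraries. Cyp2e holds 39.7%, Cyp2c 20.25% over 8 genes, Cyp2d 12.1% over 6 genes, and Cyp3a 1.27% over 4 genes.

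Families differed in how their counts were spread. Of the counts of the 45 genes with a row, family 2 held 84.8% with 25 genes, family 1 held 6.055% with 2, and family 4 held 4.31% with 8. The 53 annotated P450 genes with no row are not in these shares. Reads with more than a single place were not counted either, and how far this alters the family shares was not tested. Within the Cyp2c subfamily, densities ran 289.3-fold, from 10.3 CPM per kb for Cyp2c55 to 2979 for Cyp2c29. In Cyp2d the range was 460.4-fold, from 1.998 for Cyp2d12 to 919.8 for Cyp2d10, and in Cyp2j it was 360.1-fold, from 1.55 for Cyp2j9 to 557.1 for Cyp2j5. With whole counts divided by windows not shared with up to 2 mismatches, the same pairs of genes were 655.8-fold, 1036-fold and 319.3-fold apart. On that scale Cyp2c67 (44503, from 6 windows) and Cyp2c68 (10524, from 8) stood above Cyp2c29 (7810). The 655.8-fold is therefore not the range of Cyp2c. Per counted base the widest gap inside a subfamily was that of Cyp1a2 over Cyp1a1, which is the form known for its induction through the aryl hydrocarbon receptor. Cyp1a1 stood at 1.31 CPM per kb, 1023-fold below its neighbour on chromosome 9, and the proteins were 72.02% identical. Cyp1a1, Cyp2j9 and Cyp2d12 had log2 CPM values of only 0.990, 1.16 and 1.54, so the folds over them rest on low counts and are rough.

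Family 3 held few of the P450 counts in this table. Cyp3a25 led with 231.7 CPM per kb, Cyp3a13 had 29.3, Cyp3a59 had 26.5, and Cyp3a16, known as a fetal and female form, had 0.953. Cyp3a11, a major steroid and drug oxidase of adult mouse liver, had no row and was not analysed here. The family's 1.27% of P450 counts is therefore that of 4 genes and not of the whole family. With up to 2 mismatches, shared windows were 97.6% in Cyp3a25, 97.9% in Cyp3a59, 76.7% in Cyp3a16 and 11.2% in Cyp3a13. With its whole count divided by the remaining windows, Cyp3a25 stood at 532.4 (exact) or 9897 (up to 2 mismatches, from 34 windows). How far sharing alters the family's share was not tested.

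Of the remaining genes of families 1 to 3, Cyp2c37 had 295.9 CPM per kb, Cyp2a5, which hydroxylates coumarin, 266.4, and Cyp2a12 255.5. Cyp2c67 had 188.6 and Cyp2c68 59.5, Cyp2b10, the classic target of phenobarbital, 53.9, and Cyp2j6 57.2. Cyp2u1, a hydroxylase of long-chain fatty acids, had 44.8. Cyp2b9, Cyp2c38 and Cyp2d40 lay between 25.5 and 29.1 CPM per kb. Cyp2r1, a vitamin D 25-hydroxylase grouped here only by its family number, had 6.43. With up to 2 mismatches, 90.5% to 99.6% of windows were shared in Cyp2c37, Cyp2a5, Cyp2a12, Cyp2c67 and Cyp2c68. Divided by windows unshared exactly, these genes stood at 607.7, 657.8, 489.4, 626.8 and 178.4, so their order is uncertain. Shared windows with mismatches were 40.7% to 80.1% in Cyp2j6, Cyp2d40, Cyp2b10, Cyp2b9 and Cyp2c38, and 0 in Cyp2u1 and Cyp2r1.

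In the bile acid and sterol families, Cyp27a1 (chromosome 1, 74760148 to 74784464), the mitochondrial sterol 27-hydroxylase, was highest with 350.3 CPM per kb. Cyp7b1 (chromosome 3, 17971950 to 18143338), the oxysterol 7-alpha-hydroxylase of the pathway that Cyp27a1 opens, had 269.8, a 1.30-fold difference in density. Cyp51 (chromosome 5, 4081145 to 4104746), the lanosterol demethylase, had 145.2. Cyp46a1 (chromosome 12, 109572587 to 109600441), the cholesterol 24-hydroxylase best known from neurons, had 2.70 CPM per kb and a log2 CPM of 1.96. Cyp7a1, Cyp8b1 and Cyp39a1 had no row and were not analysed here.

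In family 4, Cyp4v3 (chromosome 8, 46391155 to 46418570) held 1073 of the family's 1417 CPM. Cyp4f15 and Cyp4f13, which hydroxylate leukotrienes and fatty acids, had 96.0 and 78.2 CPM per kb, and Cyp4f16 had 0.830. Cyp4a14, a target of the fatty acid receptor Ppara, had 30.6, Cyp4a12b had 6.44 and Cyp4a32 had 4.94. Cyp4b1, better known from lung, had 9.70. Cyp26a1 (chromosome 19, 37772298 to 37776018), the retinoic acid hydroxylase, had 5.34 CPM per kb with a log2 CPM of 2.94. Cyp17a1, a steroid hydroxylase of adrenal and gonad, had 0.993.

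Mouse liver has P450 genes known to be read mainly in one sex, and these mice were male. Of 5 male-predominant genes, 4 had a row, namely Cyp2d9 at 752.4, Cyp7b1 at 269.8, Cyp2u1 at 44.8 and Cyp4a12b at 6.44 CPM per kb. Of 10 female-predominant genes only Cyp2b9, at 29.1, and Cyp3a16, at 0.953, had a row. Cyp2a4, Cyp2b13, Cyp2c40, Cyp2c69, Cyp3a41a, Cyp3a41b, Cyp3a44 and Cyp39a1 had none and were not analysed here. Over all annotated P450 genes, 45 of 98 had a row, and no female mice were profiled. The median of the male-predominant genes was 157.3 CPM per kb. With up to 2 mismatches, shared windows were 83.3% in Cyp2d9, 96.45% in Cyp4a12b, 79.4% in Cyp2b9 and 76.7% in Cyp3a16. Whole counts divided by the remaining windows gave 4600, 185.2, 143.8 and 4.17, so these levels are uncertain. Cyp7b1 and Cyp2u1 shared 0 windows.

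P450 genes lie in tandem arrays. Neighbours no more than 1 Mb apart were joined, and 33 of the 45 genes fell into 8 arrays with at least 1 other member. These arrays hold 70 of the 98 annotated P450 genes, and 37 of the 70 had no row. The array of chromosome 19 (39081509 to 40261823) holds 14 Cyp2c genes, of which 7 had a row. There Cyp2c29 at 2979 CPM per kb stood beside Cyp2c38 at 26.8, a 111.4-fold gap between genes whose proteins were 84.7% identical. Many windows of both genes occur elsewhere. With whole counts divided by the windows that no other gene holds, the gap was 86.5-fold (exact) or 56.8-fold (up to 2 mismatches). In the array of chromosome 15 (82200958 to 82624675), Cyp2d9 at 752.4 stood near Cyp2d12 at 1.998, with proteins 87.7% identical. In the array of chromosome 7 (26587494 to 27943687), Cyp2f2 was 58.15-fold above Cyp2b9 per counted base. With up to 2 mismatches, 79.4% of windows of Cyp2b9 and 0 of Cyp2f2 were shared. Whole counts divided by the remaining windows gave 1724.5 for Cyp2f2 and 143.8 for Cyp2b9. Other genes of these arrays lay close together per counted base, with Cyp2a5 and Cyp2a12 1.04-fold apart and Cyp2d10 and Cyp2d9 1.22-fold apart. Divided by windows unshared exactly, Cyp2a5 was 1.34-fold above Cyp2a12. Divided by those unshared with up to 2 mismatches, only 8 in Cyp2a5, it was 17.3-fold above. For Cyp2d10 over Cyp2d9 these folds were 1.39 and 1.32. All these pairs were chosen after their values were seen.

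**Figure D3:**
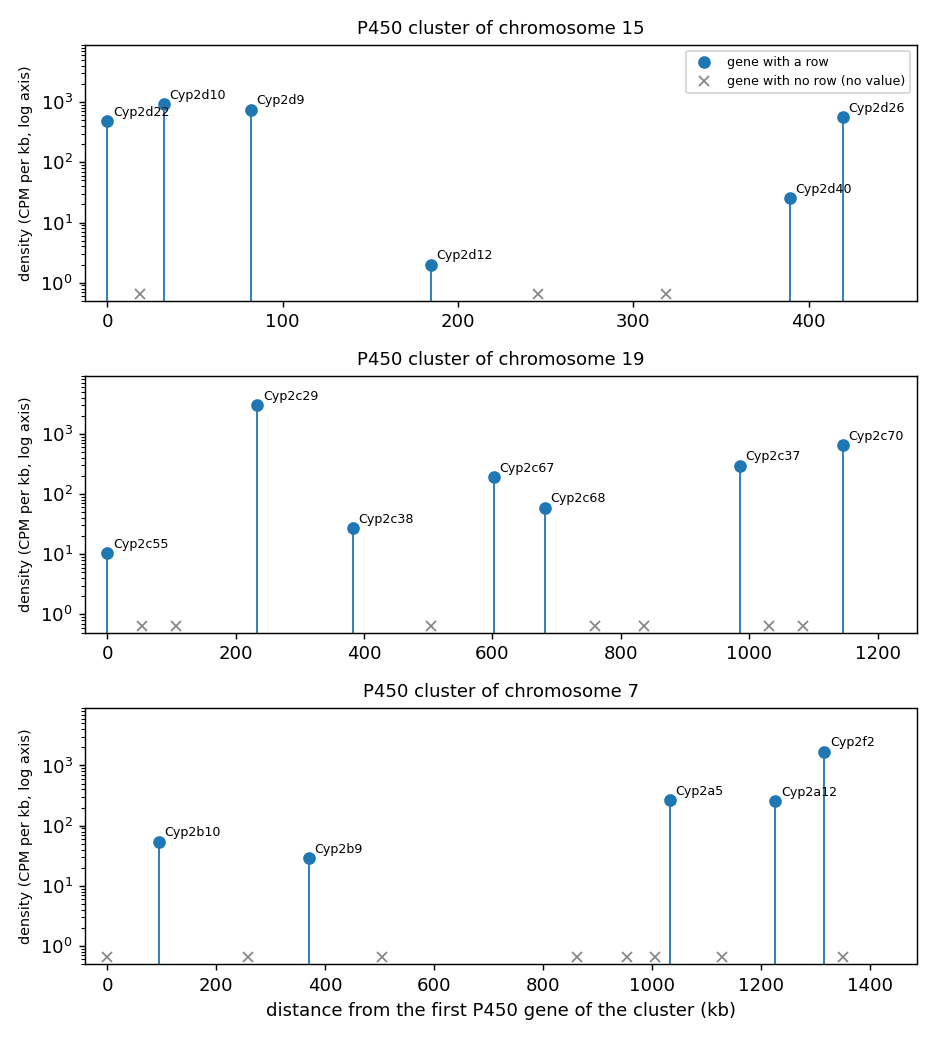
Footprint density (CPM per kb, log axis) of P450 genes along 3 tandem arrays, against distance in kb from the first P450 gene of each, with crosses for annotated genes that had no row and so no value. On chromosome 19, Cyp2c29 reaches 2979 and Cyp2c55 10.3, and on chromosome 15 Cyp2d12, at 1.998, lies between Cyp2d9 and Cyp2d40.

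Near-identical relatives bear on these levels, because the authors counted only reads that aligned to a single place with up to 2 mismatches. The counted coding sequence of each gene was cut into windows of 30 bases, about the length of a footprint, and each window was sought in the coding sequences of all other genes. In 14 of the 45 P450 genes, or 31.1%, over 30% of windows also occurred exactly in another gene, against 2.02% of 7093 genes of the table. With up to 2 mismatches, 25 P450 genes were over 30% and 10 shared 0 windows. Those 10 were Cyp2f2, Cyp2r1, Cyp2u1, Cyp4v3, Cyp7b1, Cyp17a1, Cyp26a1, Cyp27a1, Cyp46a1 and Cyp51. In Cyp2e1 0.431% of windows were shared at that limit. The genes over 30% with up to 2 mismatches held 32.2% of P450 counts.

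**Figure D4:**
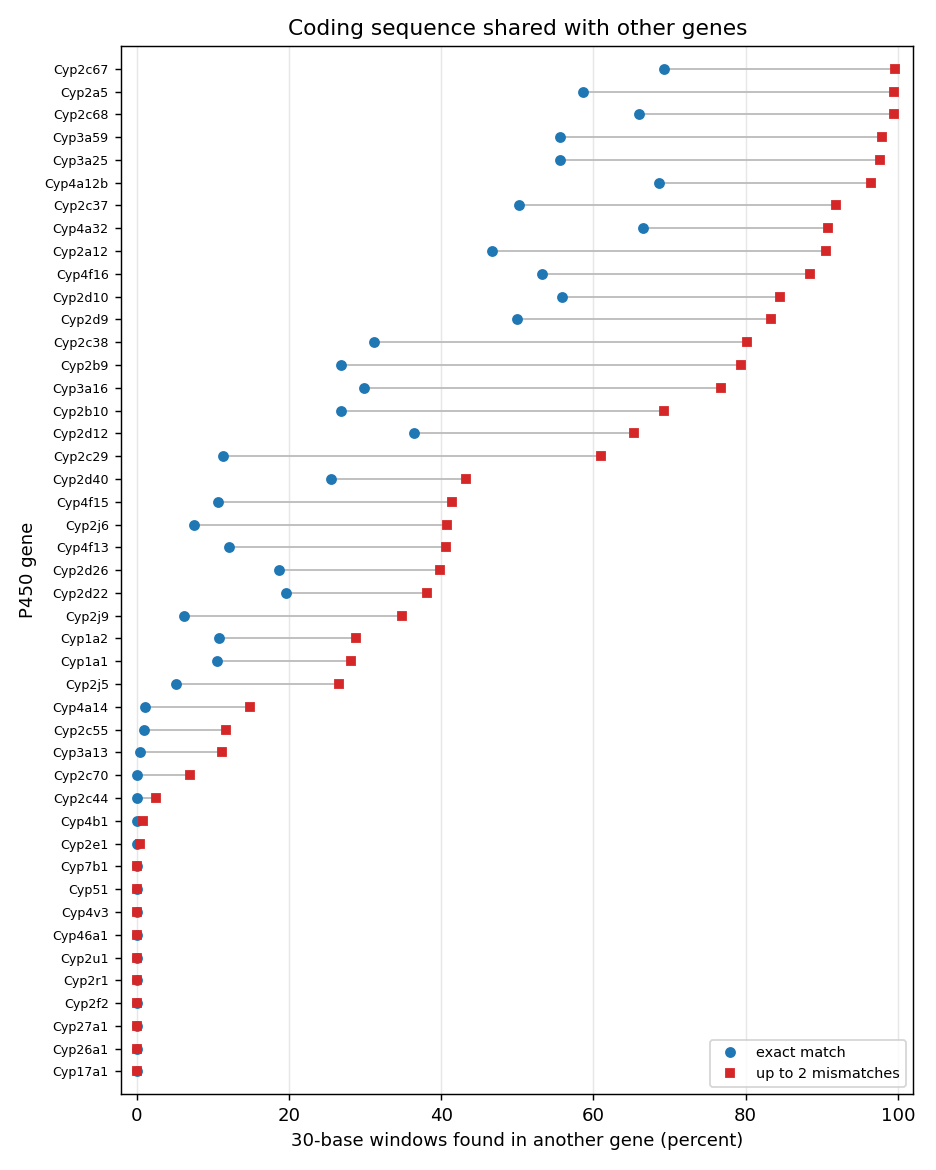
Share of 30-base windows of each P450 gene (percent) that occurs in another gene, exactly (circles) and with up to 2 mismatches (squares). The highest values are 99.6% for Cyp2c67 and 99.4% for Cyp2a5 with mismatches, and Cyp2e1 lies at 0.431%.

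The values of these genes are uncertain, since a read in a shared window has no single place. Exact sharing was highest in Cyp2c67 (69.3%), Cyp4a12b (68.6%), Cyp4a32 (66.6%), Cyp2c68 (66.0%) and Cyp2a5 (58.7%). It was 55.8% in Cyp2d10, 55.7% in Cyp3a59, 55.6% in Cyp3a25 and 53.3% in Cyp4f16. In Cyp2c37, Cyp2d9, Cyp2a12, Cyp2d12 and Cyp2c38 it lay between 31.1% and 50.3%. Divided by the windows found in no other gene, the density of Cyp2d10 became 2124 in place of 919.8, that of Cyp2a5 657.8 in place of 266.4 and that of Cyp4a12b 20.9 in place of 6.44. Under this measure Cyp2e1 was still first, and 2 of 45 genes moved by more than 5 places in the order. With up to 2 mismatches counted as shared, 21 genes moved by more than 5 places and Cyp2a5 came first, at a density of 47446 CPM per kb that divides its counts by only 8 windows.

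With mismatches allowed, 8 of the 1396 windows of Cyp2a5 had no match in another gene, and 6 of 1387 in Cyp2c67. The relative of Cyp2a5 is Cyp2a4, a female-predominant steroid hydroxylase with no row, and the 2 genes differ by 23 of 1485 coding bases. The window of the counted part that holds the most differences is shown, bases 596 to 625 of the coding sequence, with differing bases in capitals.

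Cyp2a5: tgtcactGcttCgaatgatgctgggaagcT
Cyp2a4: tgtcactTcttAgaatgatgctgggaagcC

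Cyp4a12b and its relative Cyp4a12a, a male-predominant fatty acid hydroxylase with no row, also differ by 23 bases, of 1527. The corresponding stretch is bases 654 to 683.

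Cyp4a12b: agttgaggacctgaacAatctcTtttttCT
Cyp4a12a: agttgaggacctgaacGatctcGtttttTC

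Footprints of such pairs can be told apart only where they cover a difference. Of the 25 genes over 30% shared with mismatches, the main relative of 17 had no row. For the pair Cyp3a25 and Cyp3a59, both with a row and 95.0% identical as proteins, the first was 8.76-fold higher in density. With whole counts divided by the windows that no other gene holds, Cyp3a25 was 8.75-fold higher (exact) or 7.73-fold higher (up to 2 mismatches). In the latter case 34 and 30 windows remain. Over all 45 genes, density and the share of windows matched with mismatches had a Spearman rho of -0.05, given as a description across genes that share libraries.

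Other sequence features varied among the genes. Proteins had 489 to 534 amino acids, apart from Cyp2d40, whose coding sequence held 338 codons. GC content of the coding sequence was 42.2% to 58.0%, and its Spearman rho with density was 0.04 across the 45 genes. The number of coding exons ran from 5 in Cyp2r1 and Cyp2u1 to 15 in Cyp46a1, and 23 genes had 9. Protein identity within a subfamily was 53.3% to 95.1% with a median of 71.0%, and between families it was 20.6% to 37.0%.

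The proteins that serve P450 enzymes were examined as lists. Of 9 electron donors and partners, 6 had a row. Por had a density of 259.4 CPM per kb, and 16 P450 genes, from Cyp2e1 down to Cyp2a5, lay above it per counted base. Cyp2a5 at 266.4 and Cyp2a12 at 255.5 lay close to Por on either side, with no spread to tell them apart. Divided by windows unshared exactly, Cyp2a12 (489.4), Cyp3a25 (532.4) and Cyp2c67 (626.8) also exceeded 259.4. No such value was made for Por. Cyb5r3, the cytochrome b5 reductase, had 974.6, Fdx1 had 374.7, near Cyp27a1, which draws on it, and the heme-binding Pgrmc1 had 3057. Pgrmc2 and Fdx1l had 31.5 and 3.82, while Cyb5a, Cyb5b and Fdxr had no row and were not analysed here.

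Genes of heme synthesis and breakdown spanned a wide range. Alas1, the first and limiting enzyme of heme synthesis in liver, had 583.5 CPM per kb, and Alad had 311.9. The later enzymes Cpox, Urod, Fech and Uros had 157.5, 94.8, 55.6 and 7.11. On the side of heme breakdown, Blvrb had 229.8, Hmox2 60.8 and Blvra 31.2. Ppox and Hmox1 had no row.

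Regulators of P450 genes were also read. Hnf4a, a receptor that maintains the hepatocyte programme, had 208.6 CPM per kb, Ppara 138.0, and the bile acid sensors and repressors Nr1h4 and Nr0b2 had 87.55 and 115.4. The receptors of foreign compounds were lower, with 38.5 for Nr1i3, 25.0 for Nr1i2 and 23.3 for Ahr. Rxra, a partner of Nr1i3 and Nr1i2, had 88.8. Cebpb, Nr1h3 and the retinoic acid receptor Rarb had 60.9, 21.5 and 2.1. Arnt, Nr5a2, Cebpa, Rara and Nfe2l2 had no row.

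P450 genes were set beside the enzymes that act next to them. Conjugating enzymes and carboxylesterases (Ugt, Gst, Sult and Ces genes, 45 with a row) had a median of 190.5 CPM per kb and together 1.93% of all counts. Dehydrogenases and reductases (Adh, Aldh, Akr and Hsd genes, 34) had a median of 186.7 and 1.54%. The P450 median of 59.5 was lower, while the highest P450 gene stood above Gstm1 at 2970 and Adh1 at 1906, the first of the other sets. In the top 10% by density lay 57.8% of the first set, 58.8% of the second and 44.4% of P450 genes. These are descriptions of genes with a row, and no test was made between the sets. Shared windows were not tallied for the other 2 sets, and the bearing of sharing on the medians was not tested.

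**Figure D5:**
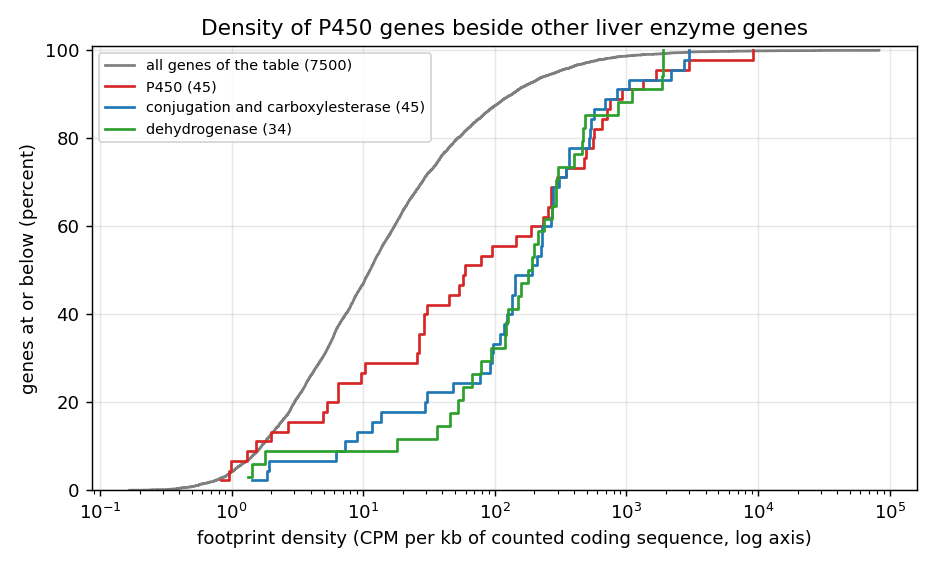
Percent of genes at or below a given footprint density (CPM per kb, log axis) for P450 genes, 2 other sets of liver enzymes and the whole table. The P450 curve crosses 50% at 59.5, left of the other enzyme sets at 190.5 and 186.7 and right of the table at 11.3.

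The tissue was checked with markers. Of 10 hepatocyte genes 9 had a row, with a median of 1827 CPM per kb, Alb being highest at 51730. Medians were 26.5 for 6 of 7 Kupffer and macrophage markers, 15.1 for 6 sinusoidal endothelial markers, 11.4 for 5 stellate markers and 2.28 for 4 of 5 cholangiocyte markers. The sets overlapped, since the lowest hepatocyte gene, Serpina1a at 194.4, lay below the stellate marker Dcn at 208.1. The adrenal and gonadal P450 gene Cyp17a1 had 0.993, while Cyp11b1, Cyp11b2, Cyp19a1 and Cyp21a1 had no row, which says nothing of their level. The share of P450 levels that comes from cells other than hepatocytes was not tested.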

How the data were processed

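Ribosome footprints were sequenced from 8 liver libraries of 4 mice, grouped by their titles into 0 Se and 0.1 Se. According to the methods of the study, adapters were trimmed, ribosomal RNA reads removed, and unique Bowtie alignments with up to 2 mismatches counted on the longest RefSeq isoform (mm9), without the first 15 and last 3 codons. Genes over 1 CPM in no fewer than 3 samples were tested. The deposited log2 CPM is an average over all libraries that the authors took from edgeR, which by default adds a small prior count and so raises low values. No source used here gives tool versions. The table also holds 4 columns of the authors' comparison of the diets (fold changes, p-values and adjusted p-values), which were not used, so the planned diet comparison could not be made. Columns of single samples numbered 0. Summed CPM was 857014, which is 85.7% of the total that CPM is scaled to.

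The deposited length was 60 bases shorter than a GENCODE M1 coding sequence of the gene in 97.7% of 7260 matched genes, and in all 45 P450 genes, so it was taken as the counted part and density as CPM per kb of it. It had been planned as the whole coding length. Coordinates, 1-based, are from GENCODE M1 (mm9). Windows began after 45 bases and were sought in 20284 coding sequences, exactly and, with bwa 0.7.19, with up to 2 mismatches. This search was tested on simulated sequences. Proteins were aligned with Biopython 1.88 (BLOSUM62, gap penalties 11 and 1). Members and lists were chosen with earlier results of these data known. Named were the 12 densest genes, the highest and lowest of each subfamily of 3 or more, the sterol and retinoid families, genes over 30% shared, and the lists of sex-biased genes. Pairs set side by side within a subfamily or array, and the relatives whose sequences are shown, were chosen after their values were seen. The heme motif and the windows were searched in GENCODE M1 in place of the planned RefSeq sequences. The remaining members are named so that each is accounted for. Some genes of the heme and regulator lists are not reported here.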

Additional observations from a re-analysis of the deposited data

How the results depend on the processing

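No replicate spread exists for pooled values, so a value was taken as moved when it changed over 1.5-fold. P450 genes held 3.29% of counts, 3.83% of the summed table, 2.85% or 2.23% without genes over 30% shared exactly or with 2 mismatches, and 1.98% without Cyp2e1. A filter at log2 CPM 3 left 36 of 45 genes and raised the median density of family 4 from 20.1 to 54.4 CPM per kb. Per window found in no other gene, the median of families 1 to 3 went from 188.6 to 489.4 (exact) or 773.9 (2 mismatches), and that of family 4 to 94.6 with 2 mismatches. With 2 mismatches, the median share of windows matched elsewhere was 39.9% in place of 10.8%, and 25 genes were over 30% in place of 14. The order then moved by over 5 places for 21 genes, Cyp2a5 coming first. Which of these readings applies depends on how the aligner treated second-best places, which no source used here states. The length settings moved 0 of 45 densities, and the windows moved 13 (exact) or 25 (2 mismatches). The settings with 2 mismatches, all GENCODE genes and the annotated length were chosen after seeing the data. No paired analysis was possible because the table holds no value per mouse and mouse numbers differ between diets. For the same reason leaving out mice, other normalizations and other count tests were not run.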
